A study of Mus musculus with 2 samples.

Results

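Potassium channels carry the outward current that ends each heartbeat's action potential and holds the resting muscle cell at its negative potential. Each channel is built from pore subunits, often joined by accessory subunits, and different combinations make currents that open slowly, rapidly, with acetylcholine or when cellular ATP falls. Here 10 genes of such subunits were read in the RNA of embryonic mouse heart, taken as a fixed list of symbols matched through GENCODE M21 to the gene and transcript rows: Kcnq1, Kcne1, Kcnh2, Kcnj2, Kcnj3, Kcnj5, Kcnd2, Kcna5, Kcnj8 and Abcc9. All 10 had a row, out of 43346 Ensembl genes listed, with 26 listed transcripts between them.

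The RNA came from hearts of B6NCrl mouse embryos at day 12.5, pooled over males and females and labelled healthy in 1 of the 2 libraries, with no genotype change or treatment named. Each of the 2 libraries was made from 10 ng of RNA with spike-ins; the labels call them biological replicates and give them separate biosamples but 1 donor record, and the number of embryos pooled is not stated in the labels. There is 1 group, so there is no contrast between conditions, and 2 libraries cannot reach an exact p below 0.5; spreads are given as the SD of 2 libraries and no p-value is printed. The libraries held 34751234 and 31847875 estimated reads.

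Markers of heart muscle were abundant. All 6 heart muscle genes read as markers passed 1 TPM (the share of all transcripts that a gene holds, scaled for transcript length) in both libraries, with summed levels of 18577 and 18665 TPM in replicates 1 and 2. The 5 genes listed as atrial markers summed to 11589 and 11398 TPM, and 4 of them were lower in replicate 2. Nppa, Myl7 and Myl4 made up nearly all of that level, while Sln read 31.03 and 22.06 TPM and Nr2f2 16.4 and 15.18 TPM. Whether the sum came from atrial muscle alone was not tested. The 6 mural cell markers, of pericytes and vascular smooth muscle, summed to 984 and 1039 TPM and were all higher in replicate 2. Acta2 alone read 932 and 981 TPM of these sums, and whether it came from mural cells alone was not tested. Of the 6, 5 passed 1 TPM in both libraries, Myh11 at 0.58 and 1.36 TPM being the exception. Neural markers were low, at 14.4 and 13.2 TPM over 7 genes, of which 3 passed 1 TPM in both libraries. The 6 skeletal muscle markers summed to 54.1 and 52.3 TPM, and 4 of them passed 1 TPM in both libraries. Ckm alone read 41.5 and 41.9 TPM of these sums, while Myod1 read 0.41 and 0.21 TPM and Myf5 0.04 and 0.05 TPM. Whether the Ckm level came from skeletal muscle was not tested. The libraries stood apart in 7 liver markers, which summed to 239 TPM in replicate 1 and 67.5 TPM in replicate 2 and were all lower in the second; none of the lists had a gene at 0 in both libraries.

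The pore subunits share a short coding stretch, shown because it is what these otherwise different channels have in common. It encodes the selectivity filter, a row of backbone oxygens that lets potassium pass and holds sodium back. A search of 1 full-length translated coding sequence per gene for threonine or serine, any residue, glycine, tyrosine or phenylalanine, and glycine found exactly 1 match in each of the 7 pore subunits shown here and none in the accessory subunits Kcne1 and Abcc9. The fourth residue was tyrosine in 5 of them and phenylalanine in Kcnh2 and Kcnj8. Among the other complete coding sequences of these genes, Kcnj5-203 (106 codons) and Kcnj8-201 (127 codons) are short forms with no match. The lines give 30 coding bases from the GENCODE M21 transcripts on GRCm38 with the 5 filter codons in capitals. In Kcnd2 the stretch crosses an exon junction, so its coordinates span an intron.
Kcnh2 at chr5:24325549-24325578 (-): agcctcaccAGCGTGGGCTTTGGCaatgtc
Kcnj2 at chr11:111072198-111072227 (+): acccagacaACCATTGGCTATGGTttcagg
Kcnj3 at chr2:55437618-55437647 (+): accgaggccACCATCGGCTATGGCtaccgc
Kcnj5 at chr9:32322553-32322582 (-): acagaaacaACCATTGGGTATGGCttcaga
Kcnj8 at chr6:142566442-142566471 (-): gttcaagtgACCATTGGGTTTGGAgggaga
Kcna5 at chr6:126533739-126533768 (-): actatgaccACTGTAGGCTACGGGgacatg
Kcnd2 at chr6:21217397-21714147 (+): accatgacaACACTGGGGTATGGCgacatg

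Likeness over whole coding sequences was lower. The 4 inward rectifier genes Kcnj2, Kcnj3, Kcnj5 and Kcnj8 were 63.4% to 68.1% identical pairwise over their aligned coding bases, with the acetylcholine channel partners Kcnj3 and Kcnj5 the closest pair. In 7 of the 10 genes the deposited posterior SD of the read count was 0 in both libraries, and in the other three it was at most 2.16 reads, so assignment between genes left little uncertainty in the deposited estimates.

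All 10 genes passed 1 TPM in both libraries, where 57.5% of 21461 nuclear protein-coding genes did. The 10 were chosen with earlier results of these data known, so that comparison is a description and not a test. The median of the mean levels of the 10 was 9.16 TPM, against 3.64 TPM over all those protein-coding genes and 18.9 TPM over the ones that passed. Their levels spread over a 37.4-fold range, from Kcne1 at 67.3 ± 5.25 TPM (SD, n = 2) to Kcnd2 at 1.8 ± 0.0283 TPM. With reads divided by the longest listed transcript, an alternative added after the data were seen, the range was 14.2-fold, from Kcnh2 at 33.5 to Kcnd2 at 2.36 TPM. The smallest count behind any value was 103 reads and the largest 3116. RNA of a whole heart cannot tell fewer cells with a transcript from less transcript in each cell.

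**Figure D1:**
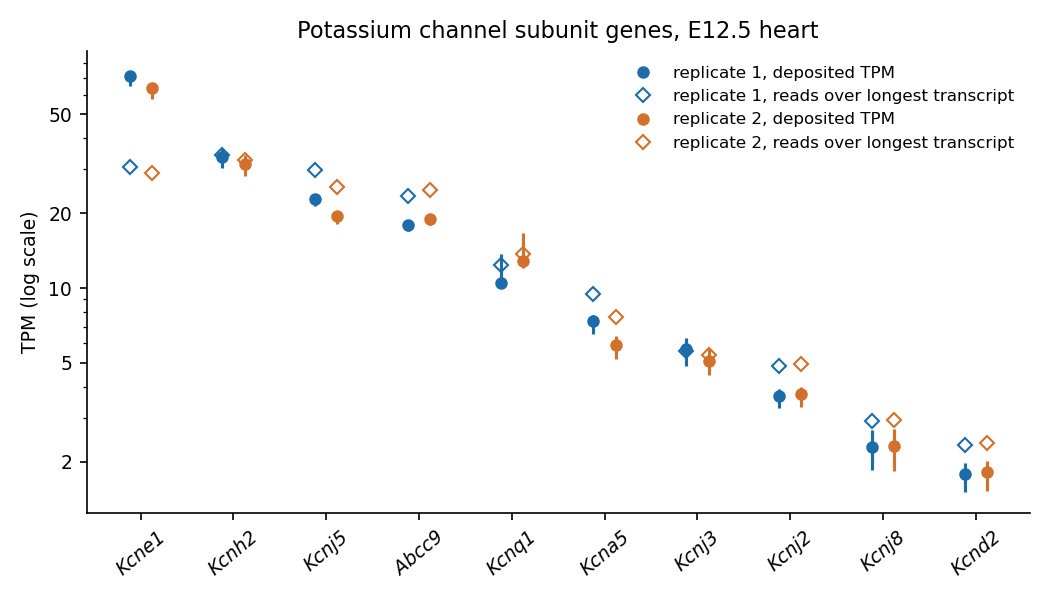
Level of each of the 10 genes in both libraries in TPM on a log axis; filled circles are deposited TPM, vertical lines the deposited TPM interval, and open diamonds the reads divided by the length of the longest listed transcript and rescaled to TPM. Kcne1 is highest by deposited TPM, at 71 and 63.6, and reads 30.7 and 29.1 by the longest transcript.

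In order of mean TPM the genes ran Kcne1, Kcnh2, Kcnj5, Abcc9, Kcnq1, Kcna5, Kcnj3, Kcnj2, Kcnj8 and Kcnd2. Neighbours in that order were taken as separated where the 2 libraries' values did not overlap and the mean log2 ratio was over 3 standard errors, estimated from the spread between libraries of genes of like abundance. By that rule 6 of the 9 neighbouring pairs were separated. Kcnj5 over Abcc9 (1.13-fold), Kcna5 over Kcnj3 (1.22-fold) and Kcnj8 over Kcnd2 (1.26-fold) were not. The first place depended on the length used. With the longest listed transcript Kcne1 had 0.891 times the level of Kcnh2 and the order of these genes flipped.

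The slow delayed rectifier, which helps end the action potential, is made of the pore subunit Kcnq1 and the small accessory subunit Kcne1, which slows its opening. Kcne1 (ENSMUSG00000039639.6, chr16:92345982-92359468, minus strand) read 71 TPM in replicate 1 and 63.6 TPM in replicate 2, from 1705 and 1462 reads. Kcnq1 (ENSMUSG00000009545.10, chr7:143106362-143427042, plus strand) read 10.5 and 12.8 TPM, or 11.7 ± 1.64 TPM (SD, n = 2), from 662 reads in each library. The accessory subunit was thus above the pore subunit in both libraries, 6.75-fold and 4.95-fold, and the pair was separated by the rule on standard errors (log2 of Kcnq1 over Kcne1 -2.52, SE 0.075). The size of that excess depended on transcript length: with the longest listed transcript the ratio was 2.47 and 2.12.

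Kcne1 is listed with 2 transcripts of very different length that share 1 coding sequence of 129 codons. Kcne1-202, listed at 601 bases, held 79.9% and 77.5% of the gene's TPM but 673 and 528 reads. Kcne1-201, listed at 3155 bases, held 20.1% and 22.5% of TPM with 1032 and 934 reads. The short form therefore carried most of the level per length and the long form most of the reads.

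Kcnq1 was read mainly from 1 coding transcript. Kcnq1-201 held 90.1% and 81.2% of its TPM from 657 and 652 reads. A 282-base model with an incomplete 3′ end, Kcnq1-207, held 8.83% and 17.9% of TPM from only 4 and 9 reads, and 4 of the 7 listed transcripts had no reads in either library. Dividing by the longest transcript brought the log2 difference between the libraries for Kcnq1 from 0.29 to 0.15.

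Kcnq1 is also host to Kcnq1ot1, a long antisense RNA of the imprinted domain (chr7:143203458-143296549, minus strand). Kcnq1ot1 was assigned 6303 and 6988 reads, 9.52 and 10.6 times those of Kcnq1, although its level per length was only 3.16 and 3.88 TPM. No source used here says whether the counting used strand, so reads of a gene and its antisense partner cannot be told apart where they overlap. The 2 genes share 121 of the 4093 exon bases of Kcnq1, or 2.96%. All of Kcnq1ot1 lies within the span of the Kcnq1 gene, so that share bears on spliced Kcnq1 RNA alone. Whether reads of unspliced Kcnq1 RNA were assigned to Kcnq1ot1 was not tested.

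Kcnh2 (ENSMUSG00000038319.10, chr5:24319589-24351604, minus strand) encodes the pore of the rapid delayed rectifier, the channel blocked by many drugs that lengthen the QT interval. It read 33.5 and 31.6 TPM, or 32.5 ± 1.37 TPM (SD, n = 2), from 2550 and 2204 reads, so the libraries were close. Kcnh2 stood 3.18-fold and 2.46-fold above Kcnq1, and the pair was separated.

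The gene is listed with 2 coding starts, shown here because they give channels with a long or a short amino end, which differ in how fast they close. The capitals mark the start codons of the first 60 coding bases.
Kcnh2-201, 1162 codons, at chr5:24351224-24351283 (-): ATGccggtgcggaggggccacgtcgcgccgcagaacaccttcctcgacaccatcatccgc
Kcnh2-202, 820 codons, at chr5:24329213-24329272 (-): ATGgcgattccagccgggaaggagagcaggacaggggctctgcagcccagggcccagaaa
The last 2357 coding bases are the same in both. The long form read 21.8 and 21.6 TPM and the short form 4.36 and 3.27 TPM, a ratio of 5 and 6.61 in favour of the long form. Another 3 listed transcripts without a coding sequence held 21.9% and 21.1% of the gene's TPM but only 4.18% and 3.82% of its reads.

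Kcnj2 (ENSMUSG00000041695.2, chr11:111066164-111076821, plus strand) encodes Kir2.1, the inward rectifier that sets the resting potential of ventricular muscle. It read 3.68 and 3.76 TPM, from 465 and 429 reads, at the 50.2 percentile of nuclear protein-coding genes. Kcnj12, which encodes the related Kir2.2, read 3.07 and 3.48 TPM. Kcnj2 was higher in each library, 1.20-fold and 1.08-fold, but the pair was not separated (log2 0.18, SE 0.17).

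The acetylcholine-activated channel of atrial and pacemaker muscle, through which the vagus nerve slows the heart, joins the subunits Kcnj3 (GIRK1) and Kcnj5 (GIRK4). Kcnj5 (ENSMUSG00000032034.5, chr9:32314707-32344350, minus strand) read 22.7 and 19.4 TPM from 2359 and 1822 reads. Kcnj3 (ENSMUSG00000026824.7, chr2:55435970-55598145, plus strand) read 5.67 and 5.10 TPM from 511 and 447 reads. Kcnj5 was 4.01-fold and 3.80-fold above its partner, with separated ranges (log2 1.94, SE 0.11). By the coding likeness described above these are the closest pair of the 4 inward rectifiers.

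Most of the Kcnj3 level was assigned to a transcript that does not encode the whole channel. Kcnj3-202 lacks the 217-base coding exon at chr2:55446826-55447042 and is listed with 235 codons against 501, though it keeps the filter codons printed above. It read 3.84 and 3.65 TPM, 67.7% and 71.6% of the gene, against 1.83 and 1.45 TPM for the full coding forms. The short form was thus 2.10 and 2.52 times the full form, or 2.31 ± 0.296 (SD, n = 2). The split rests on reads shared among transcripts. Kcnj3-202 was assigned 360 and 309 reads with posterior SDs of 22.64 and 21.45. Kcnj3-201 had 119 and 128 reads with posterior SDs of 31.4 and 25.8. The listed transcripts also differ at the 5′ end, with Kcnj3-201 starting at chr2:55435970 and Kcnj3-202 at chr2:55437165. The part of that difference in the split was not tested. An opposite-strand lincRNA, Gm26794, overlaps 1621 of 5215 exon bases of Kcnj3 (31.1%) and was assigned 17.2 and 12.1 reads, so the limit on strand applies here as well.

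Kcna5 and Kcnd2 encode pores of the rapidly activating outward currents that shape early repolarisation. Kcna5 (ENSMUSG00000045534.3, chr6:126532551-126535412, minus strand), the Kv1.5 pore, read 7.34 and 5.92 TPM from 474 and 346 reads. Its relative Kcna4, which carries a slowly recovering transient current, read 5.28 and 5.01 TPM. The folds of 1.39 and 1.18 did not separate them (log2 0.35, SE 0.126), but with the longest transcript they were separated (log2 0.33).

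Kcnd2 (ENSMUSG00000060882.5, chr6:21215503-21729805, plus strand), the Kv4.2 pore of the fast transient outward current, was the lowest of the 10 at 1.78 and 1.82 TPM, from 212 and 196 reads. Kcnd3, its Kv4.3 counterpart, was lower still at 0.76 and 0.83 TPM, a separated difference of 2.34-fold and 2.19-fold. Kcnip2, the accessory subunit that brings Kv4 channels to the membrane, was at 0.46 and 0.30 TPM, below Kcnd2 by 3.87-fold and 6.07-fold. On the deposited posterior mean TPM both partners read above 1 TPM, Kcnd3 at 1.35 and 1.33 and Kcnip2 at 1.34 and 1.13, and neither difference was separated (log2 of Kcnd2 over Kcnd3 0.37, of Kcnip2 over Kcnd2 -0.48). The deposited TPM of Kcnip2 lay below its own deposited interval in both libraries, so whether these partners pass 1 TPM depends on the estimate used.

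The ATP-sensitive channel, which opens when the cell's energy supply falls, joins a Kir6 pore with a sulfonylurea receptor. Kcnj8 (ENSMUSG00000030247.7, chr6:142564837-142571614, minus strand), the Kir6.1 pore, read 2.29 and 2.31 TPM from 113 and 103 reads. Kcnj8-201 was the only transcript listed for this gene, so all those reads went to it by default. GENCODE M21 gives Kcnj8-201 as 127 codons without the filter, at 2269 bases against 2188 as listed, so the quantified model may differ. Kcnj8-202, the 424-codon form whose filter is printed above, was not among the listed transcripts. The level is therefore that of the gene and does not tell the forms apart. Abcc9 (ENSMUSG00000030249.11, chr6:142587862-142702315, minus strand), the receptor SUR2, read 18 and 19 TPM from 3116 and 2967 reads. The genes lie 16.2 kb apart on the same strand, yet Abcc9 stood 7.86-fold and 8.22-fold above Kcnj8 and the pair was separated.

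The other pore and receptor of this channel family were also present. Kcnj11, the Kir6.2 pore, read 3.51 and 4.71 TPM, 1.53 and 2.04 times Kcnj8, a separated difference that did not hold on the undivided counts (log2 -0.14) or with replicate 1 alone (log2 0.59). The ratio rests on listed lengths of 1173 bases for Kcnj11 and 2188 for Kcnj8. The longest-transcript alternative uses the same lengths, so it cannot test their effect. Abcc8, the receptor SUR1, read 2.24 and 2.36 TPM, 8.04-fold below Abcc9 in each library. Summed, the receptors read 20.2 and 21.3 TPM and the pores 5.80 and 7.02 TPM, a ratio of 3.49 and 3.04.

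Abcc9 is spliced to 2 alternative coding ends, which are printed because they distinguish the receptor forms SUR2A and SUR2B. The capitals mark the stop codons of the last 60 coding bases.
Abcc9-203, the SUR2B end, at chr6:142590366-142590425 (-): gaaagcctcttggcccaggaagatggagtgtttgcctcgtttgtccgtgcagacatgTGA
Abcc9-202, the SUR2A end, at chr6:142594005-142594064 (-): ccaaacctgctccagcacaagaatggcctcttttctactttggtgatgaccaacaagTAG
Abcc9-203 skips the 176-base exon at chr6:142593967-142594142 that holds the SUR2A end. Both are 1546 codons long and share their first 4505 coding bases. The SUR2B end was the closer to the end of Abcc8, at 73.4% identity over 128 aligned bases against 56.9% over 123 for the SUR2A end.

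In adult heart muscle SUR2A is the form best known, and SUR2B is known from vascular smooth muscle. Here transcripts with the SUR2B end read 11.4 and 12.9 TPM and those with the SUR2A end 6.61 and 6.05 TPM. SUR2B was higher in both libraries, 1.72-fold and 2.14-fold, or 1.93 ± 0.294 (SD, n = 2). The split rests on reads shared among transcripts: the deposited posterior SD was 157 reads for Abcc9-203 in each library and 221 and 223 for Abcc9-202. The mural cell marker sum given above was mostly Acta2, at 932 and 981 TPM. Pdgfrb read 21.7 and 24.0 TPM, and Myh11 did not pass 1 TPM in both libraries. The part of mural cells in the SUR2B share was not tested.

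**Figure D2:**
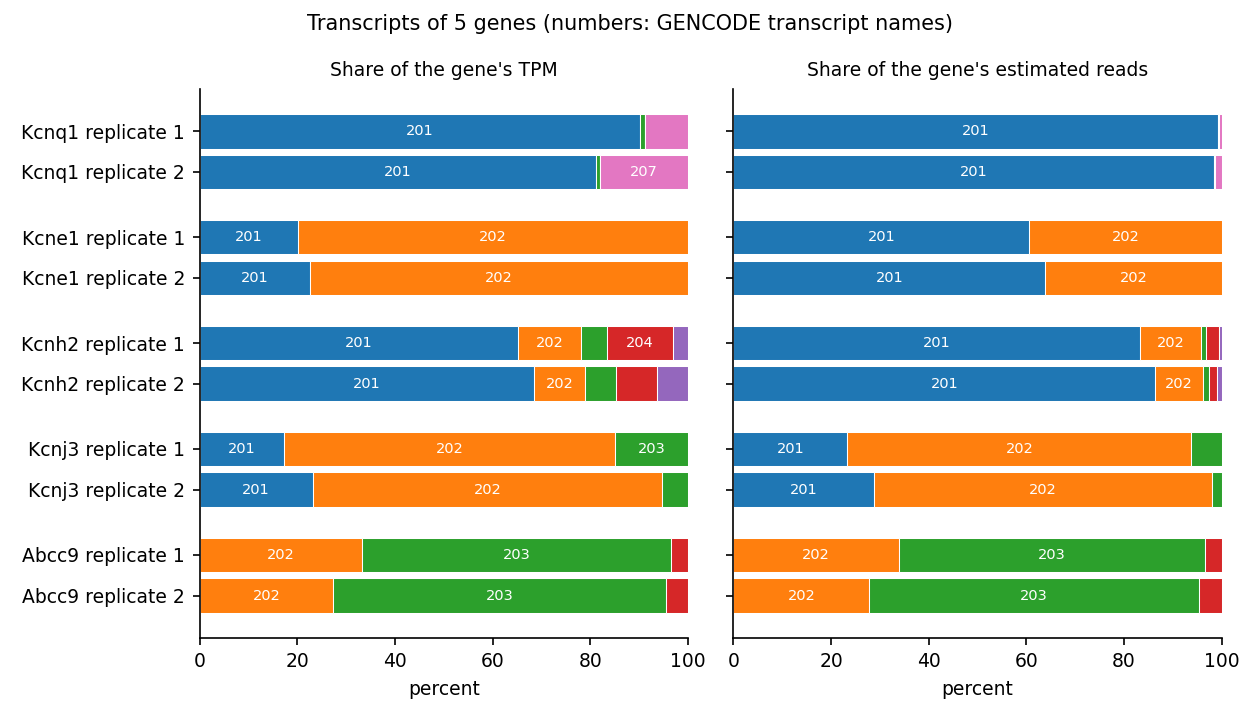
Share of each gene's TPM (left) and of its estimated reads (right), in percent, by listed transcript for 5 genes and both libraries; numbers are GENCODE transcript names and segments of at most 9% carry none. Kcne1-202 holds 79.9% and 77.5% of Kcne1 TPM but fewer reads than Kcne1-201, while Abcc9-203 holds 63.3% and 68.1% of Abcc9 TPM.

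In all, 10 pairs of partner or alternative subunits were compared and 8 were separated. The 2 that were not were Kcnj2 with Kcnj12 and Kcna5 with Kcna4.

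**Figure D3:**
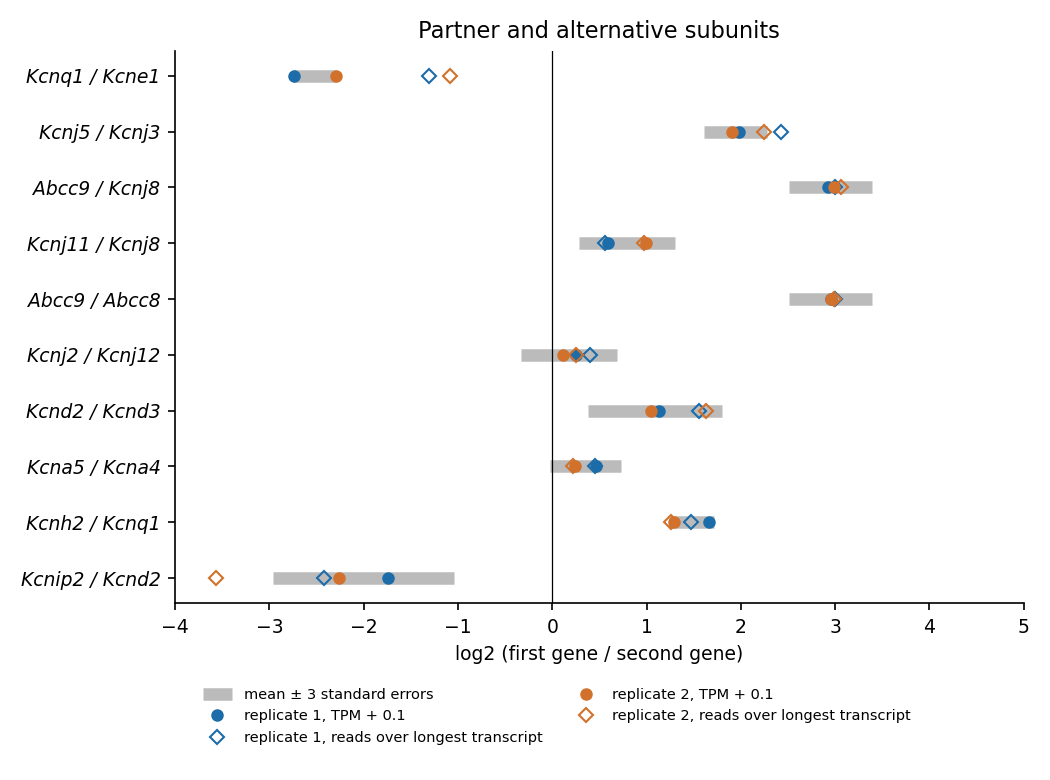
Log2 ratio of the first to the second gene in 10 pairs; filled circles are TPM + 0.1 in each library, grey bars the mean ± 3 standard errors, and open diamonds the reads divided by the longest listed transcript. The bars of Kcnj2 / Kcnj12 and Kcna5 / Kcna4 cross 0, and Kcnq1 / Kcne1 lies at -2.52.

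Between the libraries, 5 of the 10 genes were higher in replicate 2 and 5 lower. A gene was called different where its log2 ratio lay over 3 robust SDs from the median of genes of like abundance. None of the 10 was called in either direction, where 0.894% of 13529 protein-coding genes were called higher in replicate 2 and 1.40% lower. The widest gaps in log2 were Kcna5 (-0.31), Kcnq1 (0.29) and Kcnj5 (-0.23). In robust SDs from that median the widest were Kcnj5 (-2.40), Kcne1 (-2.32), Kcna5 (-2.09) and Kcnq1 (1.97). Of these, Kcnj5 was called lower with counts scaled by the median of ratios or by spike-ins.

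Kcnj3 and Kcnj5, known for their atrial expression, were both lower in replicate 2 (log2 -0.15 and -0.23), but neither was called by the main rule. The median log2 of genes of like abundance was 0.03 and 0.02, so direction alone does not set a gene apart. Of the 5 atrial markers, 4 were lower, Myl4 by a log2 of only -0.009. Kcnj8 and Abcc9 differed by a log2 of 0.01 and 0.08, while all 6 mural cell markers were higher in replicate 2. The 7 liver markers were lower in replicate 2, while of the 10 subunit genes 5 were lower and 5 higher. The part of these cell types in the differences was not tested.

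**Figure D4:**
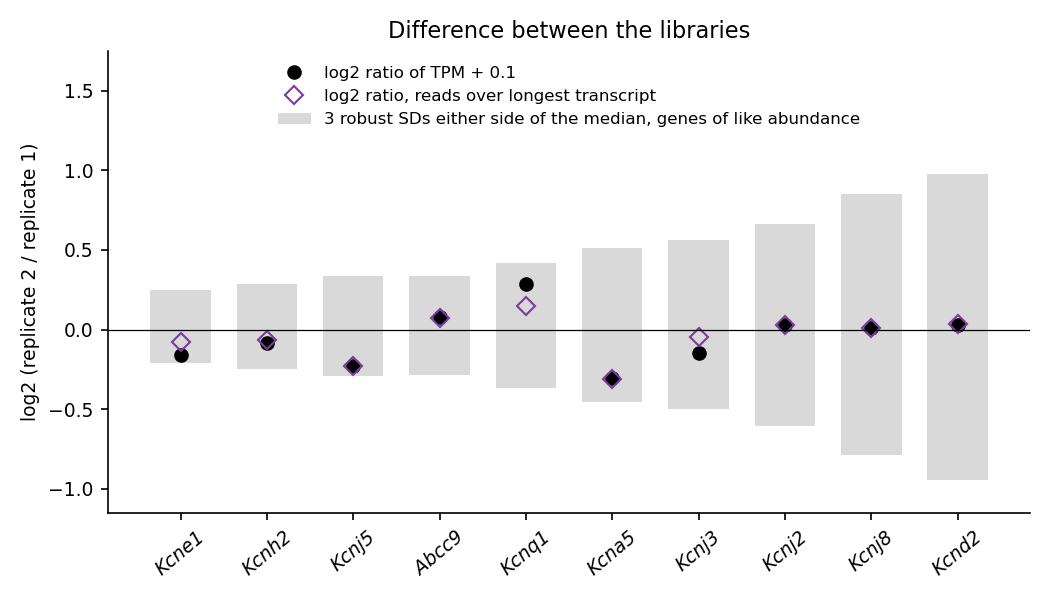
Log2 ratio of replicate 2 to replicate 1 for the 10 genes; black circles are TPM + 0.1, open diamonds the reads over the longest transcript, and grey bars 3 robust SDs either side of the median of genes of like abundance. All 10 circles lie within their bars, with Kcna5 lowest at -0.31 and Kcnq1 highest at 0.29.

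Another 50 potassium channel genes, also chosen with earlier results of these data known, were read as the setting of the 10. Of these, 24 passed 1 TPM in both libraries and 26 did not, and 32 lay below the mean level of Kcnd2. Their median was 0.878 TPM. Among other voltage-gated pores 5 of 17 passed, led by Kcnq5 at 5.91 ± 0.332 TPM (SD, n = 2) and Kcna4 at 5.15 ± 0.191 TPM, followed by Kcna6 at 1.83 ± 0.262 TPM. Kcna2, a pore of neuronal axons picked out after its values were seen, was listed at 0 in both libraries.

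Accessory subunits passed in 7 of 13 genes, of which Akap9, the scaffold that tethers kinase to the slow delayed rectifier, was the highest at 90.9 ± 7.72 TPM. With the longest transcript Akap9 read 17.8 TPM. Kcne1l, a relative of Kcne1, was at 21.5 ± 0.615 TPM and Kcne3, another of that family, at 6.77 ± 0.962 TPM. Inward rectifiers and the other receptor passed in 3 of 8 genes, all named above.

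Two-pore channels, which carry background potassium current, passed in 4 of 5 genes, and Kcnk3 (TASK-1) at 35.3 ± 0.396 TPM stood beside Kcnh2 at 32.5 ± 1.37 TPM. With the longest transcript Kcnk3 read 46.1 TPM, above Kcnh2 at 33.5 TPM, the highest of the 10 on that scale. By deposited TPM Kcnk6 and Kcnk5 followed at 3.13 ± 0.460 and 2.91 ± 0.0354 TPM. Calcium-activated channels passed in 5 of 7, led by Kcnn2 at 6.70 ± 0.226 TPM, Kcnmb4 at 5.63 ± 0.672 TPM and Kcnn4 at 4.89 ± 0.516 TPM.

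**Figure D5:**
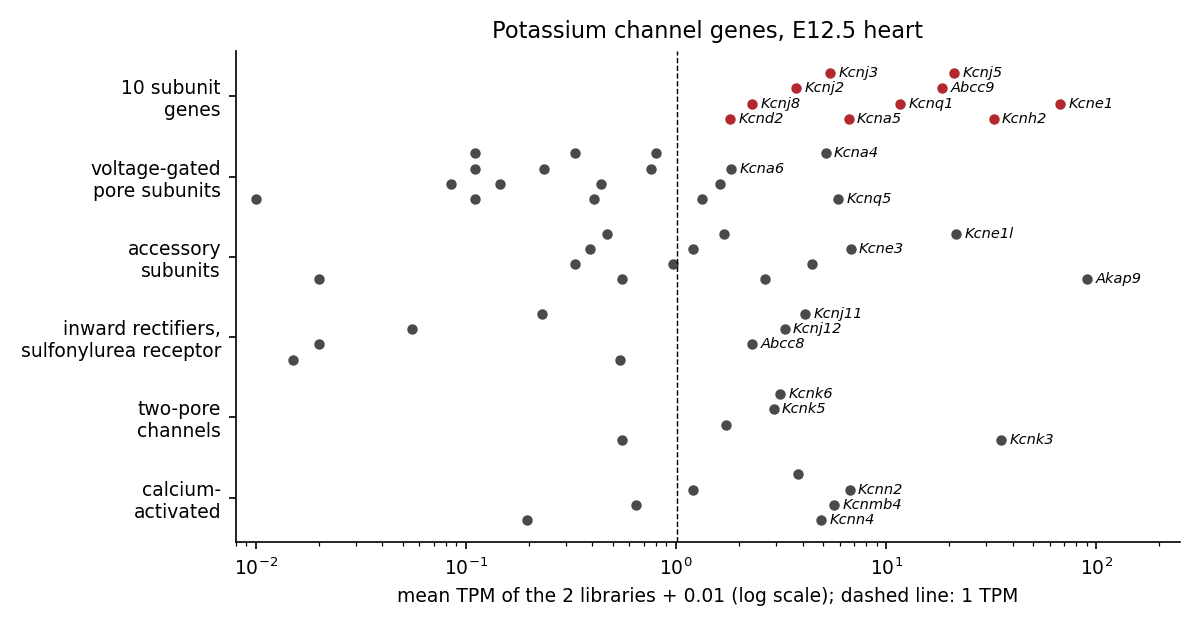
Mean TPM of the 2 libraries + 0.01 on a log axis for the 10 subunit genes (red) and 50 other potassium channel genes by class (grey), with the top 3 of each class named; the dashed line is 1 TPM. All 10 red points lie right of the line, as do 24 of the 50 others.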

How the data were processed

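Total RNA of E12.5 mouse heart was read in 2 libraries of 1 group. Extraction was by mirVana, and a SMARTer Ultra Low manual is cited, per the labels' protocols. Per the file headers, the authors deposited for each gene and transcript an expected count, TPM, FPKM, posterior estimates with interval bounds (a score here) and, per transcript, the percent of its gene's level. The labels name mm10, and notes deposited with the samples name GENCODE M4; no source used here names the aligner, the quantifier or strandedness.

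Symbols, coordinates and coding sequences came from GENCODE M21 on GRCm38; 42462 gene identifiers matched. Levels are deposited TPM. A gene counted as detected at 1 TPM in both libraries. Ratios are log2 of TPM + 0.1; their standard errors came from the robust spread between libraries in 20 abundance bins. Calls between libraries needed 3 robust SDs and a mean of at least 20 reads. The named genes are the 10 subunits, their partners in 10 pairs and the 3 highest other genes of each class. The members and lists were chosen with earlier results of these data known. Calculations used Python 3.11.15, numpy 2.4.6, pandas 2.3.3 and biopython 1.88. The calls between libraries were tried on simulated counts with planted changes, and the outcome is not used here. That trial did not cover the standard errors of pairs or the separation rule. Alternatives were another pseudocount, detection limit, scaling, length, estimate (posterior means or FPKM) and each library alone. The coding stretch of 1 gene is not reported here.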

Additional observations from a re-analysis of the deposited data

How the results depend on the processing

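Of 88 ratios of pairs recomputed under alternatives, 81 kept their direction and their side of the separation rule. Not all of them were free to change. Requiring both genes at 1 TPM or more left the values of the passing pairs as they were. FPKM changes a ratio within a library only through the pseudocount. A separated pair already has the same direction in both libraries, so either library alone could not reverse it. With counts not divided by length, which mixes level with transcript length, the log2 of Kcnj11 over Kcnj8 turned to -0.14 and that of Kcna5 over Kcna4 to -0.42, Kcnj2 over Kcnj12 became separated at 1.47, and only 3 of the 10 genes kept their place in the order. With posterior mean TPM, Kcnd2 over Kcnd3 (0.37) and Kcnip2 over Kcnd2 (-0.48) were no longer separated, and the leading Kcnq1 transcript held 74.2% of the gene. Leaving out each library in turn gave 0.59 to 1.00 for Kcnj11 over Kcnj8, not separated with replicate 1 alone. Lengths of the longest transcript, an alternative chosen after seeing the data, separated Kcna5 from Kcna4 (0.33) and put Kcne1 at 29.9 TPM. At 5 TPM, 8 of the 50 other channel genes were detected in place of 24. Counts scaled by the median of ratios, or by spike-ins, each called 1 gene lower in replicate 2, Kcnj5 in both. Of 50 gene levels recomputed under alternatives, 17 moved by more than the SD of the 2 libraries and 33 did not. Either library alone could not exceed that SD. With TPM taken over Ensembl genes alone every level rose, Kcne1 from 67.3 to 73.2 TPM, Kcnh2 from 32.5 to 35.4 and Abcc9 from 18.5 to 20.1. The cause of these changes was not tested. No paired analysis was possible because there is 1 group. With 2 libraries and 103 to 3116 reads a gene, small differences between the lowest genes were not detectable.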
